A study of Mus musculus with 5 samples.

Results

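The ATP-binding cassette (ABC) family comprises membrane transporters that use ATP hydrolysis to move lipids, peptides, metals and drugs, together with a few soluble relatives that act on ribosomes. Its genes were examined in mouse forelimbs in which Prmt5, an arginine methyltransferase, was deleted in the limb mesenchyme. Members were selected by symbol, from Abc followed by a subfamily letter from A to G and a number, and where a symbol had several rows the one with the highest mean FPKM over the genotypes was to be taken. No symbol was repeated, so that measured value decided nothing. The rule found 50 genes among 22653 genes with a row of their own in a table of 28092 rows. They made up subfamilies A with 16 genes, B with 10, C with 10, D with 4, E with 1, F with 3 and G with 6.

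RNA came from 2 Prmt5cKO and 3 Control forelimb samples at E11.5, when embryos had 47 to 48 somites, all of a mixed strain (C57BL/6 and Swiss Webster). The Prmt5cKO genotype was Prx1Cre+/-;Prmt5c/c, in which the Cre recombinase is driven by a Prx1 enhancer active in limb bud mesenchyme, so ectoderm, blood and vessels are not targeted. The genotype of the controls is labelled only as control, and no source used here tells whether they carried Cre or floxed alleles. The authors gave each gene 1 FPKM (fragments per transcript length and mapped fragments) per genotype, so no SD over replicates can be given and sequencing depth is unknown. A gene was called changed where the authors' q-value, an adjusted p-value, was under 0.05 and the mean of the Prmt5cKO and Control values reached 1 FPKM.

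Prmt5 stood at 12.5 FPKM in Prmt5cKO and 40.9 FPKM in Control, 30.6% of the Control level. The forelimb factor Tbx5 was present at 19.9 FPKM in Prmt5cKO and 23.0 FPKM in Control and the mesenchymal factor Prrx1 at 107 FPKM in Prmt5cKO and 122 FPKM in Control. Xist, which silences an X chromosome in females, was at 0.392 FPKM in Prmt5cKO and 87.3 FPKM in Control, and the Y-linked Ddx3y at 21.8 FPKM in Prmt5cKO and 0.0840 FPKM in Control. For every difference below, embryo sex and genotype cannot be told apart. In whole forelimbs, fewer cells of a type and less RNA per cell cannot be told apart either. Over 11674 genes that reached the minimum, the median Prmt5cKO level was 91.3% of the Control level, so a ratio slightly under 1 was usual.

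The subfamilies differ in build and cargo. Members of A, mostly lipid transporters, and of C, which includes the multidrug resistance proteins and sulfonylurea receptors, carry both transport units in 1 long chain. D and G members are short chains that work as dimers, in peroxisomes and lysosomes (D) or at the cell surface and in sterol transport (G), and B holds both kinds. E and F members lack membrane domains and bind ribosomes or translation factors. The longest annotated coding sequences had 1620 to 5034 codons in A, 1325 to 1588 in C, 606 to 741 in D, 646 to 673 in G, and 715 to 1321 in B.

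Of the 50 genes, 28 reached a mean of 1 FPKM and 22 did not. The highest member outside the minimum was Abcc9, with a mean of 0.520 FPKM, and the lowest inside it were Abcd2 at 1.01 and Abca7 at 1.03 FPKM. The soluble members stood highest. The A members that reached the minimum, other than Abca1, had means between 1.03 and 2.60 FPKM. Abce1, the ATPase that separates ribosomal subunits after termination, was at 81.9 FPKM in Prmt5cKO and 67.7 FPKM in Control. Abcf2, a soluble family member, was at 68.1 FPKM in Prmt5cKO and 65.8 FPKM in Control. Over the A members that reached the minimum the median of the means over genotypes was 1.57 FPKM, and Abca1 at 8.94 FPKM was the highest. Summed over all 50 genes, the family amounted to 340.4 FPKM in Prmt5cKO and 340.2 FPKM in Control, with a different makeup: A gave 5.12% of the sum in Prmt5cKO and 6.91% in Control, and E gave 24.1% in Prmt5cKO and 19.9% in Control. E is Abce1 alone, which was not called, and the difference in makeup was not tested.

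**Figure D1:**
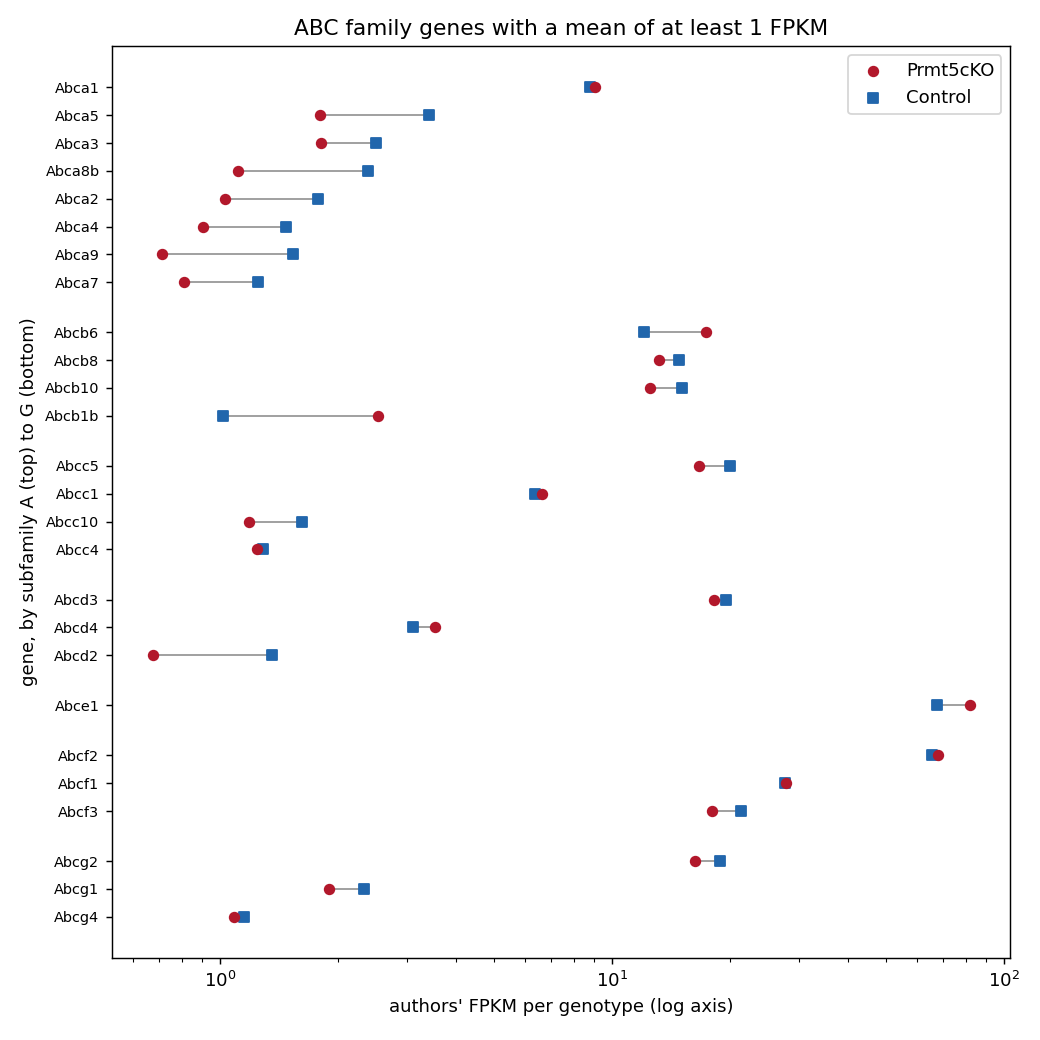
Authors' FPKM (log axis) of 26 ABC genes with a mean of at least 1 FPKM, in Prmt5cKO (circles) and Control (squares), grouped by subfamily from A at the top to G at the bottom. All A genes but Abca1 lie lower in Prmt5cKO, while Abcb6 and Abcb1b lie higher.

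Most falls were in subfamily A, and both rises were in B. Of 27 members tested, 10 were lower and 2 were higher in Prmt5cKO at the authors' q under 0.05. Over all 10617 tested genes that reached the minimum, 24.1% were called, 19.3% lower and 4.83% higher. In A, 7 of 8 tested members fell and none rose. Abca4, Abca7, Abca9 and the D member Abcd2, all called lower, were under 1 FPKM in Prmt5cKO and reached the minimum mean only through Control. The shares of tested members that fell therefore partly follow from that minimum. The counts of falls were the same without it, but they could not have differed. Among members under the minimum the smallest q was 0.459 in the authors' deposited table. In B, 2 of 5 rose and none fell, and C, D and G each had 1 fall, among 4, 4 and 3 tested members. These counts leave out the ABC genes whose symbols show no subfamily, Tap1, Tap2 and Cftr. Of those, Tap1 rose, at 3.71 FPKM in Prmt5cKO and 2.26 FPKM in Control. Neither Abce1 nor the tested F members passed, and Abcf2 was not tested by the authors. The difference between subfamilies itself was not tested. Among the members of A, B, C, D and G with more than 1000 codons, which hold both transport units, 8 of 13 tested fell and 1 rose. Of these 8 falls 7 were the A members already counted, and the remaining fall was 1 of 4 tested C members. Among the shorter ones 2 of 11 fell and 1 rose, and this difference was not tested either.

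**Figure D2:**
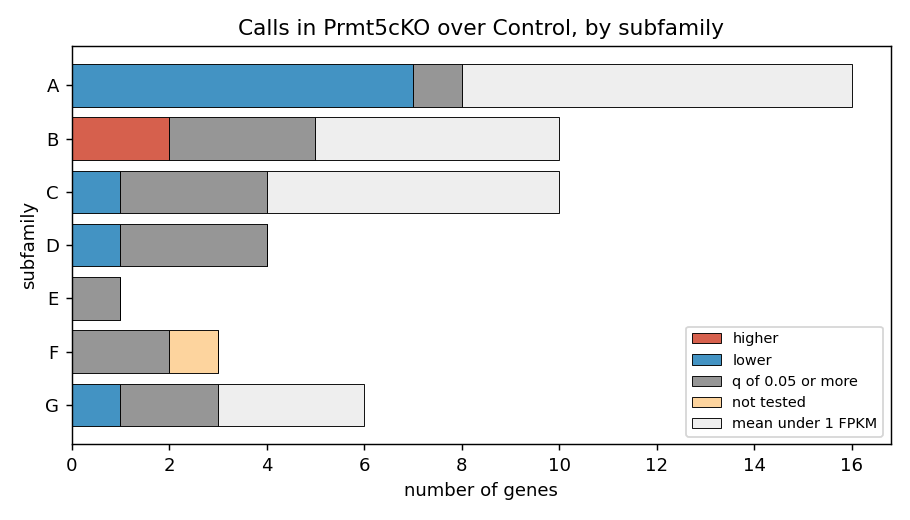
Number of ABC genes in each subfamily (rows A to G) that were higher or lower in Prmt5cKO than in Control at the authors' q under 0.05, did not pass, were not tested, or had a mean under 1 FPKM. A shows 7 of its 8 expressed members lower, and B shows 2 of 5 higher.

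The sequences just upstream of the annotated starts are shown for the members that rose, Abcb1b and Abcb6, and for the neighbouring members Abca5, Abca8b and Abca9, which fell together. They are the 250 bases before the start in RefSeq on GRCm38.p6, written 5′ to 3′ on the strand of the gene. Capitals mark matches on either strand to the CCAAT box, to the GC box GGGCGG, to the TATA box TATAAA, and to the antioxidant response core TGACNNNGC. Matches may overlap.
Abcb1b, chr5:8797897-8798146, plus strand: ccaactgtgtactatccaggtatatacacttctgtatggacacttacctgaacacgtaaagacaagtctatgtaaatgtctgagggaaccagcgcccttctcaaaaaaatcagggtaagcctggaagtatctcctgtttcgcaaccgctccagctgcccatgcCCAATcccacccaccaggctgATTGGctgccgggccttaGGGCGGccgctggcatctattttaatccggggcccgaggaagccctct
Abcb6, chr1:75180393-75180642, minus strand: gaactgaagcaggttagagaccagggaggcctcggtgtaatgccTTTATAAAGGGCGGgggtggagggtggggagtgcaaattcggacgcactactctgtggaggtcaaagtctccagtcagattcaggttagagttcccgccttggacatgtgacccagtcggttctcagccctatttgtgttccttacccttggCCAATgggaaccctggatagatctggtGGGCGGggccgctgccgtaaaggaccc
Abca5, chr11:110337717-110337966, minus strand: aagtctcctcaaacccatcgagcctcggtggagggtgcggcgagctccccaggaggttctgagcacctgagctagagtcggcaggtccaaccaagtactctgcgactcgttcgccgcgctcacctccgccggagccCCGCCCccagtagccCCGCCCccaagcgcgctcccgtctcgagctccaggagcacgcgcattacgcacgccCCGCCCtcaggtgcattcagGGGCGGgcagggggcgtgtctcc
Abca8b, chr11:109995846-109996095, minus strand: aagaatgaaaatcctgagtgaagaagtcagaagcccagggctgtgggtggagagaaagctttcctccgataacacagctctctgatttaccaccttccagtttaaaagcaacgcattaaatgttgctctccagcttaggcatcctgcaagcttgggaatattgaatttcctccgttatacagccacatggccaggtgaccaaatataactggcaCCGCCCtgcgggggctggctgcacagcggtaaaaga
Abca9, chr11:110168154-110168403, minus strand: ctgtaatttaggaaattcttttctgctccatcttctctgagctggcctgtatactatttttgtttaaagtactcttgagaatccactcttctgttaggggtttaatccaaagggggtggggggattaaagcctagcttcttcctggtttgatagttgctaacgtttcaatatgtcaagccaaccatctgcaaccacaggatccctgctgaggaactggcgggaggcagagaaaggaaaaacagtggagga

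Abcb1b had 2 matches to CCAAT and 1 to GGGCGG in this window, and Abcb6 had 1 and 2 with 2 overlapping matches to TATAAA. Abca5 had 4 matches to GGGCGG, Abca8b had 1 and Abca9 had no match to any of the motifs. Of 32841 mouse promoter windows of the same length, 33.9% hold CCAAT, 32.7% GGGCGG, 12.4% TATAAA and 10.2% TGACNNNGC. A match to the p53 half-site consensus, which 7.13% of windows hold, was found 1 time in Abcb1b and in none of the other 4 windows. The neighbours that fell together differed in base composition, with 69.2% G and C in Abca5, 48.8% in Abca8b and 44.4% in Abca9. RefSeq held a window for 38 of the 50 genes, with 45 starts in all and a median of 56.4% G and C, against 52.4% over all windows. The median was 58.8% for the 11 starts of members that fell, 54.6% for the 2 of those that rose, 61.6% for the 13 of members with no call or no test, and 52.4% for the 19 of members under 1 FPKM. Abcg2 gave several of the 11 starts of members that fell, while Abcd2, which also fell, had no window. Matches describe the letters and mark no binding site.

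Most A members that fell are known as lipid transporters of endosomes, lysosomes and specialised membranes. Their Prmt5cKO levels ranged from 46.2% to 72.5% of Control. Abca5, a protein of lysosomes and late endosomes, fell to 1.80 FPKM in Prmt5cKO, against 3.41 FPKM in Control, a change of -0.92 on the log2 scale, and the authors' deposited table gives its q as 0. Abca8b, whose human relative ABCA8 has been linked to cholesterol efflux, was at 1.11 FPKM in Prmt5cKO and 2.38 FPKM in Control (a log2 change of -1.10 with q = 2.18e-13, as the authors' deposited table lists them). Abca9, whose human counterpart is expressed in monocyte-derived macrophages, was at 0.711 FPKM in Prmt5cKO and 1.54 FPKM in Control (-1.11 on the log2 scale and q = 2.18e-06, from the authors' deposited table). These neighbours had the lowest Prmt5cKO to Control ratios among A members that reached the minimum.

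Further falls in A were Abca2, Abca3, Abca4 and Abca7, which lie on chromosomes 2, 17, 3 and 10. Abca2, an endolysosomal lipid transporter prominent in myelinating glia, stood at 1.03 FPKM in Prmt5cKO and 1.78 FPKM in Control, 57.7% of Control. Abca4, the retinoid lipid flippase of photoreceptors, stood at 0.902 FPKM in Prmt5cKO and 1.47 FPKM in Control, 61.3% of Control. The q-values of Abca2 and Abca4 were 0.00550 and 2.75e-04 in the authors' deposited table. Abca7, which moves phospholipids and acts in phagocytosis, was at 0.807 FPKM in Prmt5cKO and 1.25 FPKM in Control, and Abca3, which loads surfactant lipids into lamellar bodies of the lung, was at 1.81 FPKM in Prmt5cKO and 2.50 FPKM in Control. Their q-values were 0.00387 and 0.0155 in the authors' deposited table. Outside the chromosome 11 cluster 4 of 5 tested A members fell. Abca3 shares 2.86% of its 50-base coding windows with its paralogue Abca17.

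Abca1 was the exception in A. It passes cholesterol and phospholipids to apolipoprotein A-I, and stood at 9.07 FPKM in Prmt5cKO and 8.81 FPKM in Control, with q = 0.819 in the authors' deposited table. The other 8 A members had means of at most 0.136 FPKM. Abca12, a lipid transporter of the epidermal barrier, was the highest of them at 0.0960 FPKM in Prmt5cKO and 0.176 FPKM in Control, and Abca14 and Abca15 were listed at 0 in both genotypes. Abca6 and Abca17 were listed at 0 in Prmt5cKO and at 0.0645 and 0.0166 FPKM in Control. Abca13 and Abca16 were at 0.0561 and 0.0126 FPKM in Prmt5cKO and 0.0328 and 0.00974 FPKM in Control. Over all 22 members under the minimum the smallest q was 0.459, that of Abcc9, in the authors' deposited table. Whether the authors tested the other 21 is not stated in the sources read, so no lack of change can be read from them.

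The A members that fell had low levels. All 7 that fell had means under 3 FPKM, and with a minimum of 5 FPKM only Abca1 of subfamily A was left. Among all 336 tested genes with at least the coding length of the shortest expressed A member, 1620 codons, 31.0% were lower, and among the 184 of these with a mean under 10 FPKM 34.8% were lower. Both sets include the 8 expressed A members themselves, and both reach levels above those of the A members that fell. Abca1, with 2261 codons and no call, has a longer coding sequence than 5 of the 7 that fell. The part of coding length in the falls was not tested.

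**Figure D3:**
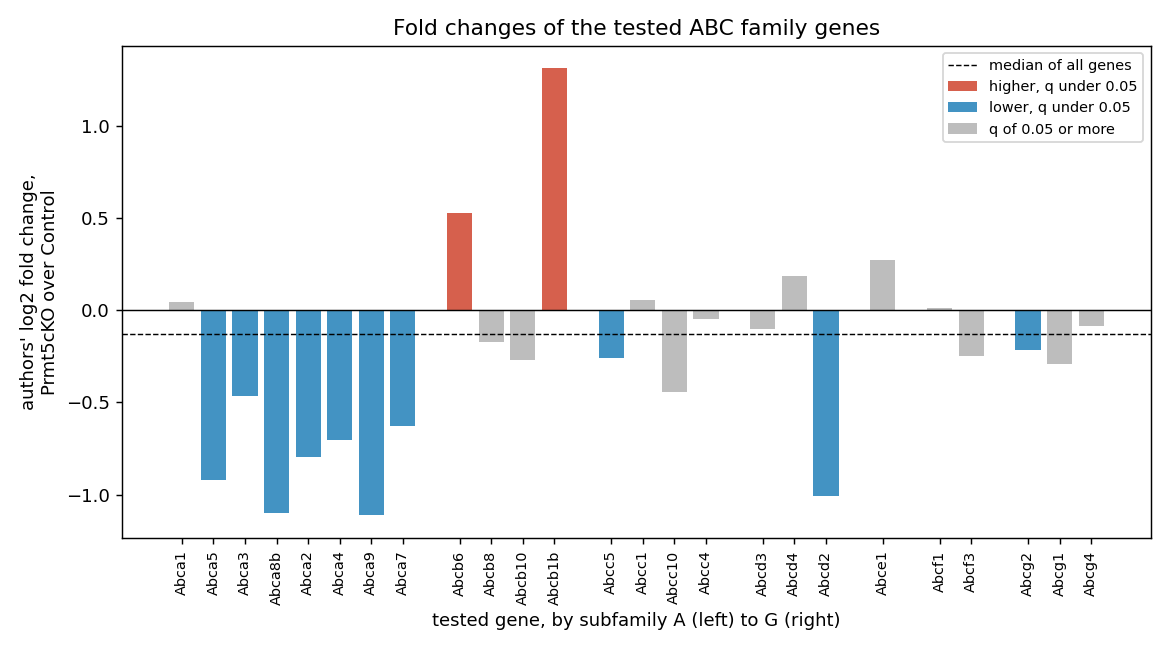
Authors' log2 fold change of Prmt5cKO over Control for 25 tested ABC genes with a mean of at least 1 FPKM, by subfamily from A at the left to G at the right. Bars are coloured by the authors' q; the dashed line is the median log2 ratio of all genes that reached the minimum, -0.13. The A bars run from -1.11 to 0.04, and Abcb1b reaches 1.31.

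Abca5, Abca8b and Abca9 are also neighbours. Abca8b, Abca8a, Abca9, Abca6 and Abca5 follow each other on chromosome 11, all on the minus strand, from 109932190 to 110337716 by GENCODE M21 on GRCm38 (mm10). Of these 5 genes the 3 that reached the minimum fell, and the remaining Abca8a was at 0.0242 FPKM in Prmt5cKO and 0.0581 in Control. Identical stretches of 50 bases were few. Of the 50-base windows in the coding sequence of Abca8b, 2.18% also occur unchanged in Abca8a. Of those in Abca9, 0.270% occur in Abca6. Windows with a mismatch were not counted. Coding identity was 75.0% between Abca8b and Abca8a and 72.1% between Abca8b and Abca9, while Abca5 shared 61.4% with Abca8b. No source used here states how the authors' counting treated shared stretches.

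The nearest 5 genes of the table on each side of the cluster were read as well, up to Sox9, which starts 2444.5 kb from Abca5. Of these 10 neighbours 6 reached the minimum, and 4 of the 6 fell, all on the side of Sox9. Over all tested genes 19.3% were lower. Map2k6, a stress kinase activator, was at 23.8 FPKM in Prmt5cKO and 33.2 FPKM in Control, and Kcnj2, a potassium channel, at 10.1 FPKM in Prmt5cKO and 14.8 FPKM in Control. Sox9, the cartilage transcription factor, was at 9.98 FPKM in Prmt5cKO and 15.1 FPKM in Control, and the transcript BC006965, which reached the minimum only through Control, at 0.250 FPKM in Prmt5cKO and 1.77 FPKM in Control. On the other side Wipi1 and Prkar1a did not pass, at 4.60 and 54.3 FPKM in Prmt5cKO and 6.12 and 55.1 FPKM in Control. The neighbours were chosen after member values had been seen.

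**Figure D4:**
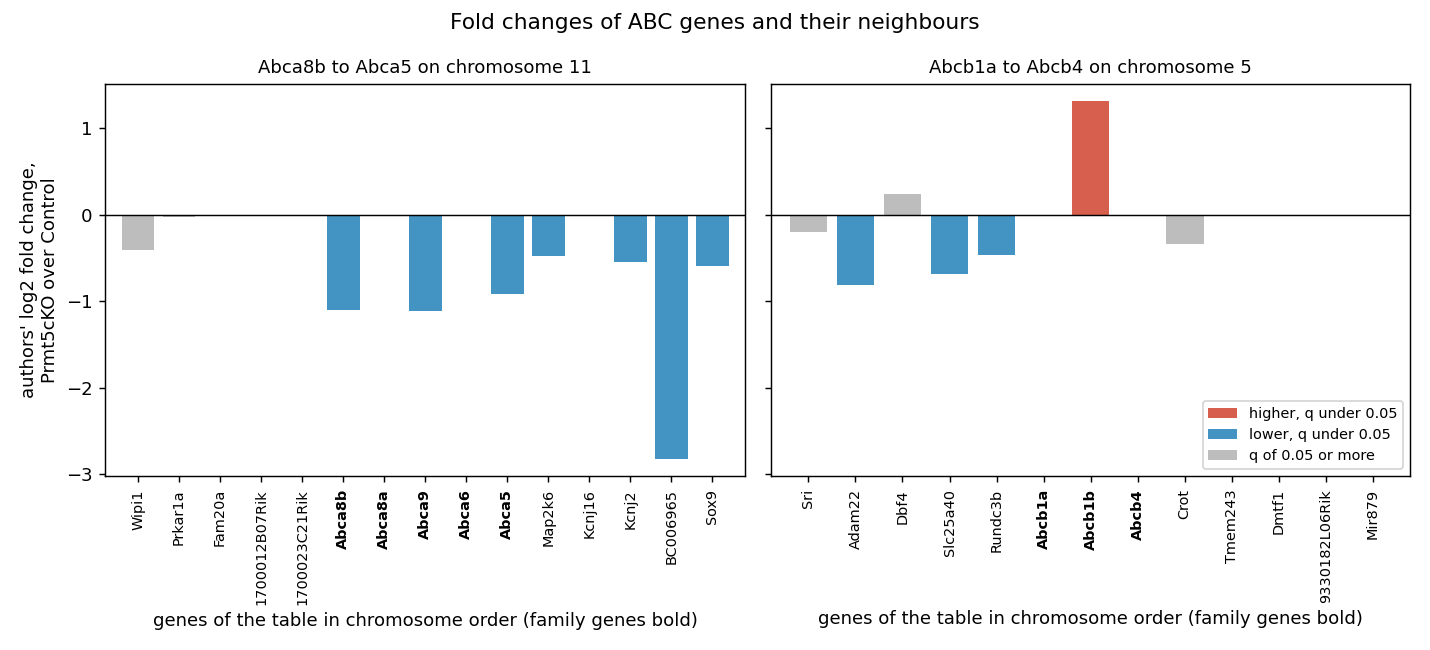
Authors' log2 fold change of Prmt5cKO over Control for ABC genes (bold) and the nearest 5 genes of the table on each side, in chromosome order, around the A cluster (left panel) and around Abcb1b (right panel). Genes with a mean under 1 FPKM or not tested have no bar. Abca8b, Abca9 and Abca5 are lower together with Map2k6, Kcnj2, BC006965 and Sox9, whereas Abcb1b is the only gene of its panel called higher.

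In B the rises were in a drug efflux pump and a porphyrin transporter. Abcb1b, a mouse P-glycoprotein that pumps drugs and other hydrophobic compounds out of cells, rose to 2.53 FPKM in Prmt5cKO, against 1.02 FPKM in Control. Its log2 fold change of 1.31 had q = 2.96e-04 in the authors' deposited table and was the largest rise among the 27 tested members. Abcb6, a porphyrin transporter of mitochondrial and other membranes, rose to 17.4 FPKM in Prmt5cKO, against 12.1 FPKM in Control (0.52 on the log2 scale and q = 8.56e-05, from the authors' deposited table). Its minus-strand locus on chromosome 1 spans 75171717 to 75180392 (GRCm38).

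Abcb1b stood apart from its close copies. It lies on chromosome 5 from 8798147 to 8866315 between Abcb1a, the other mouse P-glycoprotein, and Abcb4, which exports phosphatidylcholine into bile. Abcb1a was at 0.300 FPKM in Prmt5cKO and 0.289 FPKM in Control, and Abcb4 was at 0.0879 FPKM in Prmt5cKO and 0.310 FPKM in Control, both under the minimum. The authors' deposited table gives each a q of 1, which may stand for no test. Coding sequences of Abcb1b and Abcb1a were 88.1% identical, and 20.3% of the 50-base windows in Abcb1b also occur in Abcb1a, so the division of reads between them is uncertain. Of 10 neighbours of this cluster 9 reached the minimum: 3 fell, none rose, and 2 were not tested. Beside this, 19.3% of all tested genes were lower and only 4.83% higher. The neighbours that fell were Adam22, Slc25a40 and Rundc3b, at 3.72, 4.40 and 3.17 FPKM in Prmt5cKO and 6.54, 7.08 and 4.38 FPKM in Control.

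The mitochondrial members Abcb8 and Abcb10 did not pass. Abcb8, a transporter of the inner mitochondrial membrane, was at 13.2 FPKM in Prmt5cKO and 14.9 FPKM in Control. Abcb10, which supports haem synthesis in erythroid cells, was at 12.5 FPKM in Prmt5cKO and 15.1 FPKM in Control. The bile salt pump Abcb11 was listed at 0 in both genotypes, and the lysosomal peptide transporter Abcb9 was at 0.0811 FPKM in Prmt5cKO and 0.197 FPKM in Control. Abcb5, a relative of P-glycoprotein, was at 0.0274 FPKM in Prmt5cKO and 0.0224 FPKM in Control.

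In C the multidrug resistance protein Abcc5 fell. It exports cyclic nucleotides and other organic anions, and stood at 16.7 FPKM in Prmt5cKO and 20.0 FPKM in Control, with q = 0.00557 in the authors' deposited table. Its level was 83.4% of Control, beside a median of 91.3% over all genes. Abcc1, which exports glutathione conjugates and leukotriene C4, was at 6.62 FPKM in Prmt5cKO and 6.36 FPKM in Control. Abcc4, another exporter of cyclic nucleotides, was at 1.24 FPKM in Prmt5cKO and 1.29 FPKM in Control, and Abcc10 at 1.19 FPKM in Prmt5cKO and 1.61 FPKM in Control, none of them past the threshold. The sulfonylurea receptors Abcc9 and Abcc8, subunits of ATP-sensitive potassium channels, were at 0.576 and 0.208 FPKM in Prmt5cKO and 0.464 and 0.129 FPKM in Control. Their channel partners Kcnj8 and Kcnj11 were also under the minimum, at 0.0948 and 0.108 FPKM in Prmt5cKO and 0.0490 and 0.0771 FPKM in Control. The organic anion exporters Abcc3 and Abcc2 were at 0.393 and 0.0691 FPKM in Prmt5cKO and 0.212 and 0.0376 FPKM in Control. Abcc12 was at 0.0799 FPKM in Prmt5cKO and 0.0234 FPKM in Control, and Abcc6, whose loss in humans calcifies connective tissue, at 0.0227 FPKM in Prmt5cKO and 0.0646 FPKM in Control.

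The peroxisomal importers of D divided by gene. Abcd2, which imports very long and polyunsaturated fatty acids, fell to 0.674 FPKM in Prmt5cKO, against 1.35 FPKM in Control (-1.01 on the log2 scale and q = 0.0145, from the authors' deposited table). Its mean of 1.01 FPKM was the lowest that passed the minimum. Abcd3, the most abundant member of D and an importer of branched chains and bile acid precursors, was at 18.2 FPKM in Prmt5cKO and 19.6 FPKM in Control, with no call. Abcd4, a lysosomal protein needed for cobalamin release, was at 3.54 FPKM in Prmt5cKO and 3.11 FPKM in Control, also with no call.

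In G the xenobiotic pump Abcg2, also a marker of side-population stem cells, fell by 0.22 on the log2 scale with q = 0.0175 in the authors' deposited table. It was at 16.3 FPKM in Prmt5cKO and 18.9 FPKM in Control, 86.1% of Control. The sterol exporters Abcg1 and Abcg4 were at 1.90 and 1.08 FPKM in Prmt5cKO and 2.33 and 1.15 FPKM in Control, and did not pass. The plant sterol transporters Abcg5 and Abcg8, which overlap on opposite strands of chromosome 17, were at 0.285 and 0.0441 FPKM in Prmt5cKO and 0.333 and 0.0229 FPKM in Control, and no source used here states whether reads were counted by strand. Abcg3 was at 0.322 FPKM in Prmt5cKO and 0.220 FPKM in Control.

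The soluble members had high levels and no calls. Abce1 at 81.9 FPKM in Prmt5cKO and 67.7 FPKM in Control missed the threshold with q = 0.0744 in the authors' deposited table. Abcf1, which promotes translation initiation, was at 27.9 FPKM in Prmt5cKO and 27.7 FPKM in Control, and Abcf3 was at 18.0 FPKM in Prmt5cKO and 21.4 FPKM in Control. The partner list of ribosome recycling and Gcn2 signalling had 13 measured genes, of which 12 missed the threshold and 1 had no test. Etf1, the termination factor, was at 81.8 FPKM in Prmt5cKO and 66.7 FPKM in Control with q = 0.0542 in the authors' deposited table. The list's median log2 ratio with 1 FPKM added was 0.10, against -0.12 over all genes.

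Genes that work with these transporters were read from lists of partners. Of 19 measured sterol efflux partners 2 rose and 4 fell, 12 missed the threshold and 1 had no test, and the median log2 ratio was -0.13. The 4 falls among 18 tested genes are a share near the 19.3% lower over all tested genes. Apoe, which accepts sterols from Abca1 and Abcg1, rose to 56.4 FPKM in Prmt5cKO, against 36.5 FPKM in Control, and Lpl, a lipoprotein lipase, was at 4.27 FPKM in Prmt5cKO and 2.82 FPKM in Control. Mylip, a ubiquitin ligase induced by LXR that degrades the LDL receptor, fell to 11.2 FPKM in Prmt5cKO, against 17.8 FPKM in Control. Srebf1, a regulator of lipid synthesis, fell to 10.3 FPKM in Prmt5cKO, against 13.9 FPKM in Control. The LXR genes Nr1h2 and Nr1h3 did not pass, at 16.2 and 1.17 FPKM in Prmt5cKO and 17.9 and 1.32 FPKM in Control.

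Among 23 peroxisome genes 4 fell and none rose, while 17 missed the threshold and 2 had no test; the median was -0.22. The falls were Hacl1, an enzyme of alpha-oxidation, Hsd17b4, an enzyme of peroxisomal beta-oxidation, Scp2, a lipid carrier and thiolase, and Pex5, the import receptor. Hacl1 was at 1.91 FPKM in Prmt5cKO and 4.48 FPKM in Control, and Hsd17b4 at 31.9 FPKM in Prmt5cKO and 44.3 FPKM in Control. Among 29 iron-sulfur and haem genes 5 fell and none rose, 24 missed the threshold and the median was -0.15. Fdxr, the mitochondrial ferredoxin reductase, was at 3.06 FPKM in Prmt5cKO and 6.80 FPKM in Control. The haem synthesis genes Uros and Urod fell as well, and Urod was at 49.3 FPKM in Prmt5cKO and 71.2 FPKM in Control. The 4 falls among 21 tested peroxisome genes and the 5 among 29 here are shares near the 19.3% lower over all tested genes.

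The ABC genes with other symbols are the peptide transporter Tap1, its partner Tap2, and the chloride channel Cftr. Tap1, which feeds peptides to MHC class I, rose to 3.71 FPKM in Prmt5cKO, against 2.26 FPKM in Control (0.71 on the log2 scale and q = 0.0281, from the authors' deposited table). Tap2 and Cftr were under the minimum, at 0.278 and 0.113 FPKM in Prmt5cKO and 0.422 and 0.135 FPKM in Control. In the list of MHC class I peptide loading 10 of 14 measured genes reached the minimum, none rose, 1 fell (the proteasome activator Psme2) and 9 missed the threshold, and the median was -0.08. Of 11 glutathione and xenobiotic regulators that reached the minimum 2 fell and none rose, 8 missed the threshold and 1 had no test, and the median was -0.03. That is 2 of 10 tested, again near 19.3%. Nqo1, a quinone reductase induced by Nrf2, fell to 3.85 FPKM in Prmt5cKO, against 8.85 FPKM in Control, and Keap1, the Nrf2 inhibitor, was at 15.8 FPKM in Prmt5cKO and 18.2 FPKM in Control.

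Markers of other cell types were read because several members are prominent in such cells: Abca1, Abcg1 and, in humans, ABCA9 in macrophages, Abcg2 in endothelium and Abcb6 and Abcb10 in red cells. For the counts that follow, the shares over all tested genes were 19.3% lower and 4.83% higher. Of 15 macrophage markers 11 rose and none fell, with a summed level of 83.3 FPKM in Prmt5cKO and 44.4 FPKM in Control. Among those that rose, Aif1 and Ptprc reached the minimum mean only through Prmt5cKO, at 0.737 and 0.837 FPKM in Control. Of 12 endothelial markers 3 fell and 2 had no test, with sums of 117 FPKM in Prmt5cKO and 126 FPKM in Control. Of 11 erythroid markers 1 fell and 1 had no test, with sums of 7393 FPKM in Prmt5cKO and 9276 FPKM in Control. Of 12 surface ectoderm markers Epcam rose and Krt15 fell, with sums of 209 FPKM in Prmt5cKO and 218 FPKM in Control. Of 12 muscle markers 10 reached the minimum and 3 fell, with sums of 137 FPKM in Prmt5cKO and 169 FPKM in Control. Pax3, a muscle marker under the minimum mean, was higher, at 1.14 FPKM in Prmt5cKO and 0.525 FPKM in Control. Its q was 0.00187 in the authors' deposited table. Of 13 measured markers of limb mesenchyme 2 rose, 2 fell and 1 had no test, with sums of 681 FPKM in Prmt5cKO and 754 FPKM in Control. No marker of any of these lists was at 0 in both genotypes. Single genes weigh heavily in some sums. Col3a1 of the mesenchyme list was at 111 FPKM in Prmt5cKO and 184 FPKM in Control. Hbb-y of the erythroid list, with no call, was at 4911 FPKM in Prmt5cKO and 6478 FPKM in Control. Median log2 ratios were 0.66 for macrophage, -0.11 for endothelial and -0.09 for erythroid markers. They were -0.03 for ectoderm, -0.19 for muscle and 0.03 for mesenchyme, against -0.12 over all genes. The part of these cell types in the members' differences was not tested.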

How the data were processed

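RNA was sequenced from 2 Prmt5cKO and 3 Control forelimb samples, grouped by sample titles. TRIzol extraction and Illumina libraries are stated per the labels' protocols. Cufflinks 2.1.1, Bowtie2 2.1.0 and TopHat2 2.0.10 are listed, with the build mm10 and no roles, per the submitters' processing notes. The authors deposited 1 FPKM value per genotype and gene, a log2 fold change (Prmt5cKO over Control) and a q-value, per the file headers; their test, its adjustment and the way replicates were combined are not given in the sources read. A shorter table of 208 rows, with the same columns deposited by the authors, was read only for its gene names and lists 3 members, Abcb1b, Abca8b and Abca9.

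Rows naming no gene (4367) or several genes (597) were left out. Expressed genes with fold 0 and q 1 count as not tested. Depth per sample is unknown, no p-value was computed here, and whether the authors' q measures spread between embryos is unknown. Deposited folds differed from the log2 FPKM ratio by at most 1.28e-05. Medians of lists and subfamilies are of log2((Prmt5cKO + 1) / (Control + 1)), where the pseudocount of 1 FPKM understates changes of low genes. Coordinates and coding lengths are from GENCODE M21, with a coding length for 92.1% of tested genes, and identity was computed with edlib 1.3.9.post1; tables were handled with pandas 2.3.3. The counting steps were tested on simulated data.

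By rule the text names every member that reached 1 FPKM, of lower ones those with a q under 0.05 (none), the highest in each subfamily and those at 0 in both genotypes, and at most 4 called genes of a pathway list by size of change. A few results that the rule names are not reported here, and figures of single genes leave them out. Other members under 1 FPKM, neighbours, Etf1, the LXR genes, potassium channel partners and cell type markers were named after their values were seen. Members and lists were chosen with earlier results of these data known. Alternatives were another minimum, pseudocount, q, fold, scaling and choice of repeated rows. limma was not run, since each gene has 1 value per genotype.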

Additional observations from a re-analysis of the deposited data

How the results depend on the processing

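Over 10 alternatives in all, counts of called members were recomputed under 6 and medians under 7. With a mean of at least 5 FPKM, 2 members fell (Abcc5 and Abcg2) and 1 rose (Abcb6), subfamily A had 0 falls and B had 1 rise, 7 members had a lower FPKM in Prmt5cKO, and the A median was that of Abca1, 0.037, because the A members that fell lie under 5 FPKM. With no minimum the counts of called members could not differ, since no member under 1 FPKM had a q under 0.05. The medians were then -0.096 in A and 0.046 in C, and the muscle marker Pax3 was called higher. Demanding at least 1.5-fold left 1 rise in B, Abcb1b. With pseudocounts of 0.1 and 0.01 FPKM the A median was -0.69 and -0.74, against -0.42 with 1 FPKM. Rescaling by the median ratio, 0.13 on the log2 scale, gave a median of 0.00021 over all genes, against -0.12 as deposited. That of B was 0.068 with this rescaling and 0.033 with rescaling by summed FPKM, against -0.05 as deposited. At a q under 0.01 the family had 7 falls, without Abca3, Abcd2 and Abcg2, so D and G had 0. With at least 1.5-fold it also had 7, without Abca3, Abcc5 and Abcg2, so C and G had 0. At a q under 0.1 it had 10. No paired analysis was possible because the values are 1 per genotype, and no replicate could be left out. The depth of the samples limits low genes to an unknown degree, and counts of called genes rest on the authors' q alone.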
